A study of Homo sapiens with 6 samples.

Results

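The plasminogen activation and protein C genes described here are 8 genes taken by symbol from the count and FPKM tables, namely PLAU, PLAUR, PLAT, PROCR, F3, TFPI, THBD and F2RL1. All 8 are among the 30327 genes of the count table. The list was chosen by the lower read counts of PLAU and PROCR in si_GRB2 than in si_NC, so the differences of its members between the groups are given as a description, with errors and without p-values. The libraries were 6 poly(A) RNA libraries of SK-BR-3, an established HER2-overexpressing breast cancer line, 3 after transfection of a nontargeting siRNA as control (si_NC) and 3 after transfection of siRNA against GRB2 (si_GRB2), the adaptor protein that links receptor tyrosine kinases to RAS. The descriptions of the treated libraries read si_GRB2, whereas their titles and genotype field name GRB2 overexpression. The study's methods also name an overexpression group for RNA-seq, while its results describe a knockdown. GRB2 had 124, 130 and 126 CPM (reads scaled to the TMM-normalized library size) in si_NC and 27.8, 28.1 and 29.6 CPM in si_GRB2, which is −2.15 ± 0.04 (SE) as log2 fold change (edgeR quasi-likelihood, adjusted p = 3.87e-15), and the libraries were read as knockdown. The methods of the study give the sequence of a single siRNA against GRB2, a supplementary RNA sheet lists samples from several, and the labels do not tie the sequenced libraries to one of them. The labels also give no time after transfection, and the methods of the study state one only for RT-PCR and Western blot. The labels do not say whether the 3 libraries of a group came from separate cultures. The errors and p-values therefore cover the spread between these libraries, which may be technical.

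Plasminogen is a circulating zymogen that becomes plasmin, a protease that dissolves fibrin and cleaves matrix proteins. PLAU (urokinase) and PLAT (tissue-type plasminogen activator) make that cut, and PLAUR, the urokinase receptor, holds PLAU on the cell surface. Clotting starts when F3 (tissue factor), a membrane protein, binds factor VII, and TFPI inhibits that complex. THBD (thrombomodulin) turns thrombin towards protein C, PROCR (the endothelial protein C receptor) presents protein C for activation, and F2RL1 is a protease-activated receptor that trypsin-like proteases, including the tissue factor complex, can switch on. Many carcinoma cells make urokinase, its receptor and tissue factor, while THBD, PROCR and TFPI are best known from endothelium.

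The promoters of the 4 genes whose values differed most between the groups relative to their error are given first. RefSeq windows were found for 6 of the 8 genes, and each covers 250 bases before the start site and 50 bases from it on, in GRCh38.p14, written 5′ to 3′ on the strand of the gene. The start site of each window shown is that of the MANE Select transcript in GENCODE 44. Capitals mark matches on either strand to the AP-1 motif TGANTCA, the GC box GGGCGG, the TATA box TATAAA and the NF-κB motif GGGRNNYYCC. Here R is A or G, Y is C or T, and N is any base.

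PLAU, chr10:73910882-73911181, plus strand: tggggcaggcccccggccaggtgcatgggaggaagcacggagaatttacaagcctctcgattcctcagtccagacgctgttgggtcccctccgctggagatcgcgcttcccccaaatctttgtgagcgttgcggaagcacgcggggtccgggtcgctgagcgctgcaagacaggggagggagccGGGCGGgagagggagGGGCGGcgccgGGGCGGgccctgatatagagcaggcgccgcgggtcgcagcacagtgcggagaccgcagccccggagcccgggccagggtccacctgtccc
PLAUR, chr19:43670120-43670419, minus strand: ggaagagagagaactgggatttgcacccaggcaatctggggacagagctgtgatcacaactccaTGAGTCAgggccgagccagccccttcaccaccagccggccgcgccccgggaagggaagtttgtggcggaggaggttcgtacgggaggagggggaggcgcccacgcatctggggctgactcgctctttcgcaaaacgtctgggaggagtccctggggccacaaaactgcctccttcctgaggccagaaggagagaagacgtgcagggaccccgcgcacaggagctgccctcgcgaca
PROCR, chr20:35171822-35172121, plus strand: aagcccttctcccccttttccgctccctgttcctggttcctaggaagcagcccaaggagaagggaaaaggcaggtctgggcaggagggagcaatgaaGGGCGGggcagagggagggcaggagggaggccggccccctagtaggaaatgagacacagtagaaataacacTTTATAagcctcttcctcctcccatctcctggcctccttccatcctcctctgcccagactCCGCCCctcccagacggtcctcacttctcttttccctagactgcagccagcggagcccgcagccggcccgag
F3, chr1:94541710-94542009, minus strand: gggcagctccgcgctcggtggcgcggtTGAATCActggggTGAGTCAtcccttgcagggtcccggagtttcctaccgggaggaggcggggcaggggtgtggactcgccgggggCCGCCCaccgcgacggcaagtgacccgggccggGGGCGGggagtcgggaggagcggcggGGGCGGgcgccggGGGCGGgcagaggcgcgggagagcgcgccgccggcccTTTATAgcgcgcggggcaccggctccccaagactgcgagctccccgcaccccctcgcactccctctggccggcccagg

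The AP-1 motif, bound by FOS and JUN dimers, was found once in the PLAUR window, starting at position −186 relative to the start site. The F3 window held 2 AP-1 matches that did not overlap, starting at positions −223 and −210. The PLAU and PROCR windows had no such match, and 7.71% of the 35114 RefSeq promoter windows of this length had at least 1. The PLAU window had 3 GC boxes, the PROCR window 2 and the F3 window 4, a motif present in 45% of all windows. A match to the TATA box, found in 11.5% of all windows, lay on the opposite strand in the PROCR and F3 windows. The NF-κB motif in this exact spelling was in none of the 4 windows and in 11.3% of all windows. Sites that depart from this spelling were not searched for, so none of these windows can be said to lack an NF-κB site. A match is a stretch of letters and not a measured binding site, and its absence says only that these letters are not in this window.

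Reads counted on genes ranged from 24810378 to 28532480 per library, and 15801 genes had enough reads to be tested. Mitochondrial transcripts took 8.66% to 9.02% of counted reads in si_NC and 7.59% to 7.80% in si_GRB2. The line showed its labelled identity, with ERBB2 at 3499 ± 74.9 CPM (SD, n = 3) in si_NC and 9 of the 10 epithelial and HER2 markers tested, while CDH1, the epithelial cadherin, had fewer than 10 reads in every library. Of these 9 markers, 7 were lower and 1 was higher in si_GRB2 at an adjusted p under 0.05 (edgeR's quasi-likelihood test), and their summed FPKM was 3403 to 3781 in si_NC and 2944 to 3072 in si_GRB2. Of 10 endothelial markers, 8 had fewer than 10 reads in every library or were not listed, PECAM1, KDR, TEK and TIE1 among them. CDH5, the endothelial cadherin, was present, at 28.4 ± 1.14 CPM in si_NC and 18.5 ± 2.13 CPM in si_GRB2 (SD, n = 3 each), as was ESAM. The summed endothelial marker FPKM was 8.9 to 10.35 in si_NC and 8.01 to 8.85 in si_GRB2. Fibroblast markers summed to 0.38 to 0.58 and 0.42 to 0.49 FPKM, and monocyte and macrophage markers to 10.13 to 11.26 and 9.19 to 9.94 FPKM, most of the latter from CSF1R. The part of these differences in the values of the genes below was not tested.

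The level of each gene per length of transcript was read from the authors' FPKM. In si_NC, PROCR was highest with a mean of 17.0 ± 0.953 FPKM (SD, n = 3), followed by F3 at 9.94 ± 0.107, F2RL1 at 5.87 ± 0.0451, PLAU at 5.4 ± 0.208 and PLAUR at 2.9 ± 0.246 FPKM. THBD, with a mean of 0.577 ± 0.0513 FPKM, and TFPI, with 0.183 ± 0.0503 FPKM, were far lower. Among the si_NC libraries the ranges of neighbours in this order did not overlap, although F2RL1, from 5.82 to 5.91 FPKM, and PLAU, from 5.16 to 5.53 FPKM, were close. In si_GRB2 the first places were exchanged, with F3 at 12.5 ± 0.263 FPKM (SD, n = 3) above PROCR at 9.39 ± 0.465 FPKM, and the order of the other 6 genes was the same. PROCR was chosen for its lower reads in si_GRB2, so nothing is read from this exchange. SK-BR-3 cells in both groups thus had transcripts of urokinase, its receptor, the protein C receptor, tissue factor and F2RL1, and little of thrombomodulin, TFPI and tissue-type plasminogen activator.

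**Figure D1:**
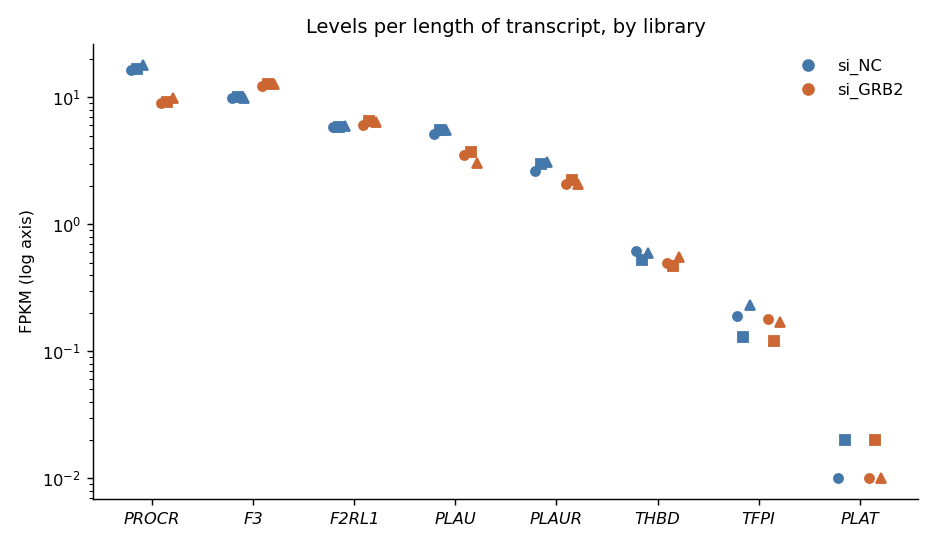
FPKM of the 8 genes on a log axis in each library, with circles, squares and triangles for replicates 1, 2 and 3 and colours for si_NC and si_GRB2; the si_NC replicate 3 value of PLAT, listed at 0, is not drawn. PROCR, which was chosen for its lower reads in si_GRB2, lies above F3 in all si_NC libraries and below it in all si_GRB2 libraries.

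Among the 8 genes, 7 had enough reads to be tested and PLAT did not. Of the 7, 2 met the limits of a differentially expressed gene (more than 1.5-fold in either direction with an adjusted p under 0.01), PLAU and PROCR, which are the genes the list was built around. Over all 15801 tested genes, 2.52% met these limits, 1.69% with lower values in si_GRB2. Since the choice of the list fixed these calls, nothing is read from their number. The values of both groups did not overlap in 5 of the 7 genes and in 42.3% of all tested genes. The median log2 fold change was −0.29 over the 7 genes and 0.0019 over all tested genes. PLAU and PROCR enter this median and the number of genes without overlap. The choice of the list therefore bears on both, and nothing is read from them. In these bulk libraries, fewer cells with a transcript and less of it per cell cannot be told apart.

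**Figure D2:**
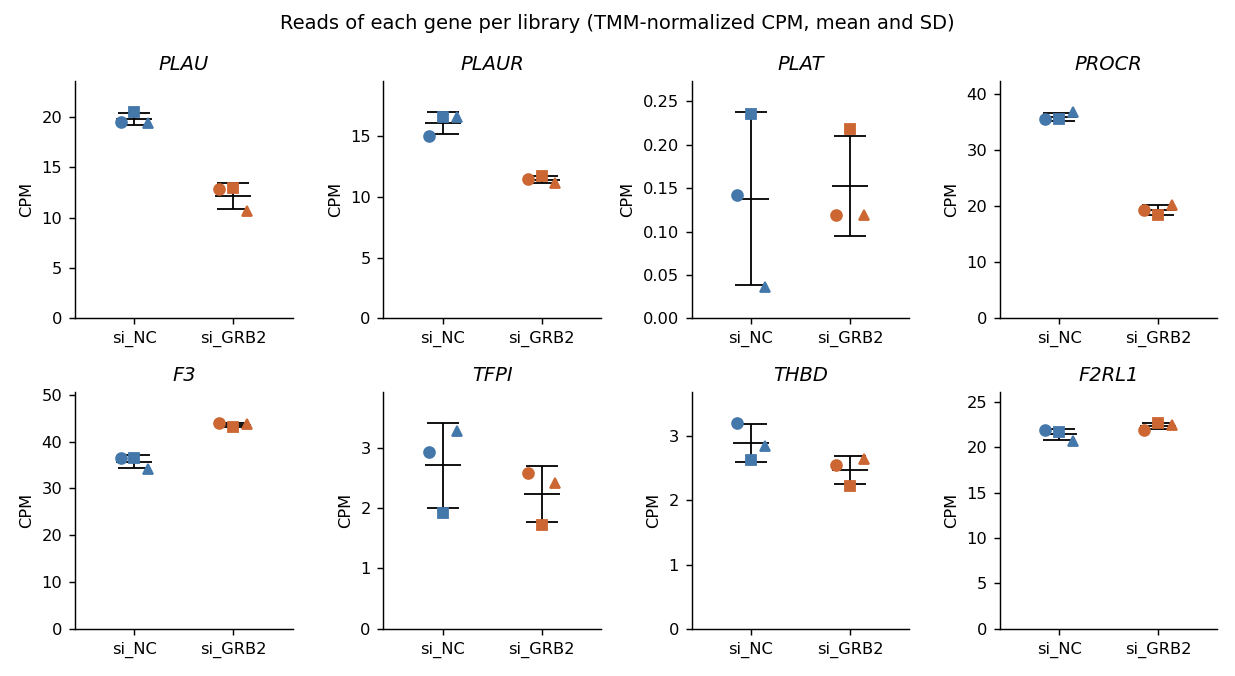
TMM-normalized CPM of each of the 8 genes in every library, with horizontal lines for the mean and bars for the SD of 3 libraries; circles, squares and triangles are replicates 1, 2 and 3, and each axis starts at 0. The groups are apart for PLAU, PLAUR and PROCR, which are lower in si_GRB2, and for F3, which is higher, while F2RL1 is nearly level and TFPI and THBD overlap.

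PLAU (ENSG00000122861.16), the urokinase-type plasminogen activator, lies on the plus strand of chromosome 10 of GRCh38 from 73909177 to 73917496, and its MANE Select transcript has 11 exons and 2343 bases. It had 548, 523 and 545 reads in the si_NC libraries and 324, 355 and 271 in the si_GRB2 libraries. In CPM these were 19.5, 20.5 and 19.4 against 12.9, 12.9 and 10.7. Every si_GRB2 library was below every si_NC library, and si_GRB2 replicate 3 was the lowest of all. The level in si_GRB2 was 61.5% of that in si_NC, a log2 fold change of −0.70 (SE 0.07, 95% confidence interval −0.86 to −0.54), and 2.06% of tested genes had a lower log2 fold change. Without si_GRB2 replicate 3 it was −0.62. On the FPKM scale PLAU did not meet the limits of a differentially expressed gene, with a limma difference of −0.54 in log2(FPKM + 1), which is under the fold-change limit, and of −0.65 in log2(FPKM + 0.1), where the adjusted p was above its limit. The gene C10orf55 on the opposite strand covers 429 bases of the PLAU exons and had 95 reads over the 6 libraries, equal to 3.70% of those of PLAU. The methods of the study describe a strand-specific library preparation, but it is not stated whether the counting used strand.

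PLAUR (ENSG00000011422.12), the receptor that keeps urokinase at the cell surface, is a minus-strand gene of chromosome 19 (43646095 to 43670547), with 7 exons in its MANE Select transcript. It had 15.05, 16.6 and 16.6 CPM in si_NC and 11.5, 11.7 and 11.1 CPM in si_GRB2. The groups were apart, and the spread within si_GRB2 was the smaller, with means of 16.1 ± 0.9 and 11.4 ± 0.299 CPM (SD, n = 3 each). Its level in si_GRB2 was 71.1% of that in si_NC, a log2 fold change of −0.49 (SE 0.07, 95% confidence interval −0.64 to −0.34). It was thus lower than in si_NC without reaching the fold-change limit, and leaving out each library in turn gave log2 fold changes from −0.55 to −0.47. Ligand and receptor were lower together, and within libraries there were 1.30, 1.24 and 1.17 reads of PLAU per read of PLAUR in si_NC and 1.12, 1.11 and 0.964 in si_GRB2. These ratios also did not overlap, but PLAU was chosen for its lower reads in si_GRB2, so nothing is read from this.

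PLAT (ENSG00000104368.19), the tissue-type activator that acts mainly on fibrin-bound plasminogen, is a minus-strand gene of chromosome 8 (42174718 to 42207709). It had 4, 6 and 1 reads in the si_NC libraries and 3, 6 and 3 in the si_GRB2 libraries, or 23 reads in all. At this depth no difference was detectable and none was tested. Of the activators of plasminogen in this list, nearly all reads therefore belonged to PLAU.

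PROCR (ENSG00000101000.6), the receptor that presents protein C to thrombin bound by thrombomodulin, lies on the plus strand of chromosome 20 from 35172072 to 35216240, and its MANE Select transcript has 4 exons and 1349 bases. It had 995, 904 and 1030 reads in si_NC and 483, 505 and 510 in si_GRB2. As CPM these were 35.5, 35.5 and 36.7 against 19.2, 18.4 and 20.1. No other member differed as much, and the libraries within each group were close, with means of 35.9 ± 0.719 and 19.2 ± 0.879 CPM (SD, n = 3 each). The level in si_GRB2 was 53.6% of that in si_NC, a log2 fold change of −0.90 (SE 0.05, 95% confidence interval −1.01 to −0.79), and 0.867% of tested genes had a lower log2 fold change. Over the 14 alternative settings the log2 fold change ranged from −0.93 to −0.79. MMP24OS, on the opposite strand, overlaps the annotated gene body with 23799 reads against 4427 of PROCR, shares 0 bases with the exons of the MANE Select transcript, and had a log2 fold change of 0.16.

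THBD (ENSG00000178726.7), thrombomodulin, is an intronless gene (1 exon) on the minus strand of the same chromosome, from 23045633 to 23049672. It had 3.21, 2.63 and 2.85 CPM in si_NC and 2.54, 2.22 and 2.65 CPM in si_GRB2, from 61 to 90 reads per library. The groups overlapped. The log2 fold change was −0.23 (SE 0.16), and its 95% confidence interval from −0.58 to 0.11 holds both no change and a level about as far below si_NC as that of PLAUR. There were 11.1, 13.5 and 12.9 reads of PROCR per read of THBD in si_NC and 7.55, 8.28 and 7.61 in si_GRB2. The receptor of protein C was therefore the better represented of the pair in every library.

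F3 (ENSG00000117525.14), tissue factor, the cellular starter of coagulation, is a minus-strand gene of chromosome 1 (94529173 to 94541759), with 6 exons. It had 36.6, 36.5 and 34.1 CPM in si_NC and 43.9, 43.2 and 43.8 CPM in si_GRB2. All si_GRB2 libraries were above all si_NC libraries, in the opposite direction to PLAU, PLAUR and PROCR. The level in si_GRB2 was 122.1% of that in si_NC, a log2 fold change of 0.29 (SE 0.04, 95% confidence interval 0.20 to 0.38), short of the fold-change limit. Under the 14 alternative settings it ranged from 0.25 to 0.33. Tissue factor and PROCR had near equal reads in si_NC, with 1.03, 1.03 and 0.929 reads of F3 per read of PROCR, and 2.29, 2.35 and 2.17 in si_GRB2. Reads of F3 per read of PLAU were 1.87, 1.78 and 1.76 in si_NC and 3.41, 3.34 and 4.09 in si_GRB2. Neither ratio overlapped between the groups, but PROCR and PLAU were chosen for their lower reads in si_GRB2, so nothing is read from this.

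TFPI (ENSG00000003436.16), the Kunitz-type inhibitor of the tissue factor complex, is a minus-strand gene of chromosome 2 (187464230 to 187565760). It had 2.92, 1.92 and 3.28 CPM in si_NC and 2.58, 1.71 and 2.41 CPM in si_GRB2, from 47 to 92 reads per library. Replicate 2 was the lowest in both groups, and the groups overlapped. The log2 fold change was −0.29 (SE 0.21), with a 95% confidence interval from −0.74 to 0.16, and it ran from −0.48 without si_NC replicate 2 to −0.12 without si_GRB2 replicate 2. The antisense gene CALCRL-AS1 had 38 reads, or 9.60% of the TFPI total.

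F2RL1 (ENSG00000164251.5), protease-activated receptor 2, lies on the plus strand of chromosome 5 from 76818933 to 76835315, with 2 exons. It had 21.9, 21.6 and 20.7 CPM in si_NC and 21.9, 22.6 and 22.4 CPM in si_GRB2. The log2 fold change was 0.06 (SE 0.05, 95% confidence interval −0.05 to 0.17), the smallest of the 7 tested genes. The lowest si_GRB2 library lay just above the highest si_NC library, and the means of 21.4 ± 0.618 and 22.3 ± 0.353 CPM (SD, n = 3 each) differed by less than the sum of both SDs. With 551 to 621 reads per library, the interval does not reach a difference of the size seen in F3.

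**Figure D3:**
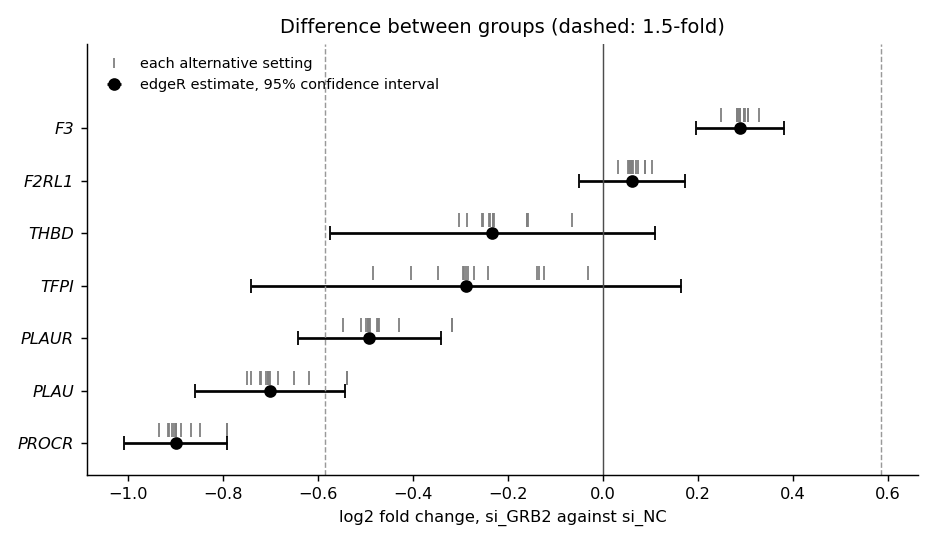
Log2 fold change of si_GRB2 against si_NC for the 7 tested genes, with points for the edgeR estimate, bars for its 95% confidence interval, grey ticks for each alternative setting and dashed lines at a fold change of 1.5. PROCR lies wholly beyond the dashed line, the bars of PLAU and PLAUR span it, F3 lies between it and 0, and the bars of TFPI, THBD and F2RL1 cross 0.

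The 8 genes lie on 7 chromosomes, PROCR and THBD sharing chromosome 20. Genes around PLAU and PROCR were examined to see whether their surroundings were lower too. Of 24 tested genes within 250 kb of PLAU, 0 met the limits of a differentially expressed gene with edgeR's quasi-likelihood test and 0 with DESeq2. An unadjusted p under 0.05 was found for 6 of them, against 39.4% of all tested genes, and at an adjusted p under 0.05 2 were lower and 2 higher, against 30.6% of all tested genes (15.5% lower and 15.2% higher). The genes past that threshold were SEC24C, a coat protein of transport vesicles, with a log2 fold change of 0.24, AP3M1, an adaptor complex subunit, with 0.17, CHCHD1 with −0.14 and the transcript RP11-574K11.24 with −0.32. The largest differences among the 24 genes were log2 fold changes of 0.69 for the pseudogene BMS1P4, 0.43 for the pseudogene DUSP8P5 and −0.32 for SYNPO2L, none of which passed, with adjusted p-values from 0.0674 to 0.389 (edgeR's quasi-likelihood test). Of 11 tested genes within 250 kb of PROCR, 0 met the limits with either tool and 7 had an unadjusted p under 0.05, 5 of them lower and 2 higher at an adjusted p under 0.05, beside the shares of 39.4% and 30.6% over all tested genes. ACSS2, an acetyl-CoA synthetase, had a log2 fold change of −0.39 (adjusted p = 1.57e-07), GSS, glutathione synthetase, of −0.38 (adjusted p = 1.42e-07) and CEP250, a centrosomal protein, of −0.26 (adjusted p = 0.00126), all from edgeR's quasi-likelihood test. The neighbours of PROCR that were lower differed less than PROCR itself, whose log2 fold change was −0.90. PROCR was chosen for its lower reads in si_GRB2, so nothing is read from this comparison.

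Profiles over the 6 libraries were compared by the root mean square distance of log2 CPM, each gene centred on its own si_NC mean, among 10623 other genes with at least 5 CPM on average. The profiles nearest to PLAU were GBP2, a guanylate-binding protein, at 0.0599, NEDD9, a focal adhesion scaffold, at 0.0700 and KIF15, a mitotic kinesin, at 0.0782. Those nearest to PROCR were TMTC2 at 0.0309, DEK, a chromatin protein, at 0.0434 and MAP1LC3B, an autophagy protein, at 0.053. PLAU and PROCR were 0.187 apart. PROCR stood at rank 213 among the profiles nearest to PLAU, and PLAU at rank 91 among those nearest to PROCR. Centred on si_NC, this distance depends largely on the log2 fold change, by which PLAU and PROCR were chosen. The named genes had log2 fold changes from −0.69 to −0.66, against −0.70 for PLAU, and from −0.90 to −0.85, against −0.90 for PROCR. Shared regulation was not tested.

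The other genes of plasminogen activation were described from a list of 22 inhibitors, receptors, carriers and substrates, of which 13 were tested. Of these, 5 fell and 3 rose at an adjusted p under 0.05, and 5 did not pass, with a median log2 fold change of −0.11. Over all tested genes 30.6% passed, 15.5% lower and 15.2% higher. S100A10, which with annexin A2 forms a plasminogen receptor and which the study names on these libraries, fell from 278 ± 8.32 to 97.9 ± 3.13 CPM (SD, n = 3 each), a log2 fold change of −1.50 (edgeR adjusted p = 2.06e-14). ANXA2, its partner, had 377 ± 9.68 and 340 ± 9.61 CPM, a log2 fold change of −0.15 (edgeR adjusted p = 0.000928). VTN, vitronectin, a matrix protein that PLAUR binds, fell by 0.68 on the log2 scale (adjusted p = 0.00435), and F12, the contact factor that can also activate plasminogen, fell by 0.65 (adjusted p = 0.000138), both from edgeR's quasi-likelihood test. VTN had 55 to 115 reads per library and F12 141 to 274. SERPINI1, neuroserpin, an inhibitor of tissue-type activator, rose by 0.48 (edgeR adjusted p = 0.0396). IGF2R, the mannose 6-phosphate receptor, which also binds PLAUR and plasminogen, rose from 97.9 ± 1.39 to 124.5 ± 1.98 CPM (SD, n = 3 each), a log2 fold change of 0.35 (edgeR adjusted p = 5.35e-07). Plasminogen itself (PLG) and the inhibitors SERPINB2, SERPINE2, SERPINF2 and A2M had fewer than 10 reads in every library or were not listed.

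Of 29 other genes of coagulation and the protein C pathway, 9 were tested, and 2 fell, 2 rose and 5 did not pass, with a median log2 fold change of 0.06, beside 30.6% passing over all tested genes (15.5% lower and 15.2% higher). TFPI2, a Kunitz inhibitor related to TFPI that blocks plasmin and trypsin, had 4.99, 6.003 and 4.38 CPM in si_NC and 1.67, 2.003 and 1.94 CPM in si_GRB2. It fell by 1.45 on the log2 scale (SE 0.16, edgeR adjusted p = 4.90e-06), with 42 to 153 reads per library and no overlap of the groups. VKORC1, the vitamin K reductase that supports the carboxylation of clotting factors, had a log2 fold change of −0.27, and its paralog VKORC1L1 of 0.18. LMAN1, the cargo receptor for factors V and VIII, rose by 0.20 on the log2 scale (edgeR adjusted p = 0.000805). Protein C (PROC), protein S (PROS1), prothrombin (F2) and the thrombin receptor F2R had fewer than 10 reads in every library or were not listed.

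A list of 31 genes held proteases and inhibitors of the cell surface or lysosome, and also the growth factor HGF and its receptor MET. Of these, 18 were tested, and 4 fell, 4 rose and 10 did not pass, with a median log2 fold change of −0.0054. Over all tested genes 30.6% passed (15.5% lower and 15.2% higher). MMP9, a gelatinase, fell by 0.55 on the log2 scale (edgeR adjusted p = 0.0386) from 32 to 72 reads per library. FURIN, a proprotein convertase, rose by 0.21, CTSB, cathepsin B, which can activate urokinase, rose by 0.17, and TIMP2, a metalloproteinase inhibitor, fell by 0.12, with adjusted p-values of at most 0.00238 (edgeR's quasi-likelihood test). The count of 8 went down to 5 without si_NC replicate 1, to 4 without si_NC replicate 3, and to 5 without si_GRB2 replicate 2 or replicate 3. ST14 (matriptase), which also activates urokinase, had a log2 fold change of 0.06 and did not pass the test.

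**Figure D4:**
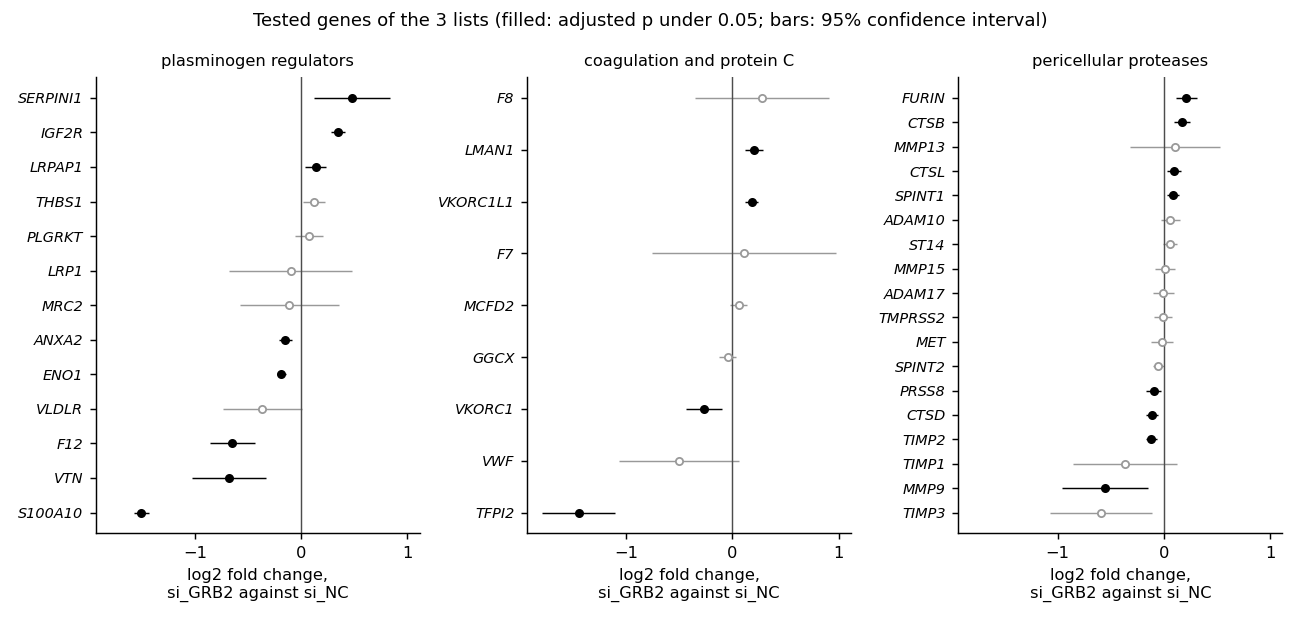
Log2 fold change of si_GRB2 against si_NC for the tested genes of the 3 lists, with bars for the 95% confidence interval and filled points for an adjusted p under 0.05. S100A10 and TFPI2 lie farthest to the left, and in each list some genes lie on either side of 0.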

How the data were processed

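Poly(A) RNA of 6 SK-BR-3 libraries (3 si_NC, 3 si_GRB2) was sequenced. The authors trimmed reads with FASTX-Toolkit, aligned them to GRCh38 with HISAT2 and deposited uniquely mapped reads as a raw count per gene, without normalization. The authors also deposited FPKM, rounded to 2 decimals. The library preparation is described as strand-specific. The scaling total, counting tool, annotation and use of strand in counting are not given in the sources used here. Read depth limits the precision of genes with few reads, as their intervals show.

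Groups were compared in R 4.3.3 by the quasi-likelihood test of edgeR 4.0.16 with TMM scaling, over the 15801 genes that passed filterByExpr, and p-values were adjusted over all of them (Benjamini-Hochberg). Genes that differed more than 1.5-fold in either direction at an adjusted p under 0.01 were called differentially expressed. Standard errors are the estimate over the square root of F, and 95% intervals used the t quantile of the fit. Of the gene identifiers, 99.7% matched GENCODE 44 without their version. The procedure was tested on simulated counts. Alternatives used DESeq2 1.42.0, limma 3.58.1 on log2 FPKM, other filters, a replicate block and each library left out.

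The members and lists were chosen with earlier results of these data known. Named genes are all members, GRB2, S100A10, at most 4 genes of each list with an adjusted p under 0.05 and the largest differences, the 3 neighbours with the largest differences and the 3 nearest profiles. ANXA2, IGF2R, SEC24C, AP3M1, CHCHD1, RP11-574K11.24, MMP24OS, C10orf55, CALCRL-AS1, ST14, CDH5, the marker genes named and the genes named as having few reads were chosen after their values were seen. Tables and figures used Python 3.11.15. Protein sequences were not used here.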

Additional observations from a re-analysis of the deposited data

How the results depend on the processing

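Over the 14 alternative settings (edgeR, DESeq2 or limma) the log2 fold change ranged from −0.93 to −0.79 for PROCR and from −0.75 to −0.54 for PLAU. It ranged from −0.55 to −0.32 for PLAUR and from 0.25 to 0.33 for F3. None of the 7 members tested in the main fit changed sign in any setting that tested it. PLAT was not followed over the settings. GRB2 had log2 fold changes from −2.18 to −1.91. The number of differentially expressed genes was 398, and 79 with limma on log2(FPKM + 1), 144 with log2(FPKM + 0.1) and 96 with log2(FPKM + 1) after dropping genes with a mean below 1 FPKM. In these 3 fits PROCR alone of the members met the limits (1 in place of 2). The plasminogen list had 3, 3 and 5 genes at an adjusted p under 0.05 in place of 8, and the protease list 2, 2 and 2 in place of 8. The cause was not tested. With each library left out in turn there were 321 to 420 differentially expressed genes, 2 members in each fit, 6 to 7 genes of the plasminogen list, 3 to 5 of the coagulation list and 4 to 8 of the protease list.

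Libraries with the same replicate number in both groups correlated in their deviations from the group means at 0.232, −0.095 and 0.08. Pairs with unlike numbers correlated from −0.282 to 0.228. With so few libraries per group, these values cannot decide whether libraries of the same number were paired. With a replicate block, 459 genes were differentially expressed and the same 2 members met the limits. No alternative was added after the data were seen. Genes with few reads, PLAT, TFPI and THBD, set the limit of what this depth can show.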
